A study of Mus musculus with 6 samples.

Results

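The genes described here encode mitochondrial ribosomal proteins, measured in mouse cumulus-oocyte complexes cultured with Torin1 or with the vehicle DMSO. Members are the genes whose symbol begins with Mrpl or Mrps and a digit and for which at least 1 probe set names no other gene. There were 71 of them among the 22180 genes measured on the arrays, 43 of the large subunit (Mrpl) and 28 of the small subunit (Mrps). The RefSeq gene table of GRCm38.p6 holds 78 protein-coding genes of these names. The other 7 (Mrpl30, Mrpl33, Mrpl41, Mrpl43, Mrpl44, Mrpl53 and Mrps6) share each of their probe sets with another gene and are outside the counts below. Each gene is given by its brightest probe set over all 6 arrays, as log2(intensity + 1).

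A cumulus-oocyte complex is an oocyte with the somatic cumulus cells around it. One group of 3 samples was given Torin1 at 5 µM, a compound that blocks the kinase MTOR at its ATP site, and the other 3 samples were given DMSO. Both came from wildtype females primed with 5 IU of equine chorionic gonadotropin for 46 h (age 21 days in one label and 23 days in another), and 100 complexes were cultured per group. Shared by all cultures were milrinone at 5 µM, which holds oocytes in meiotic arrest by blocking a phosphodiesterase, and bovine albumin at 3 mg/ml, and they lasted 14 h by the sample source or 16 h by the growth protocol. The samples are thus pools of complexes with arrested oocytes. The labels do not say whether samples came from separate mice or days, so p-values cover only the variation among these 6 samples, and that variation may be technical.

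Mitochondrial ribosomes translate the few messenger RNAs encoded by mitochondrial DNA, all of which specify subunits of the respiratory chain or of ATP synthase. Their own proteins are encoded in the nucleus, made on cytosolic ribosomes and imported. The small subunit holds the messenger RNA and the decoding centre, and the large subunit forms peptide bonds and inserts the product into the inner membrane. Many of the proteins have bacterial homologues, while others are found only in mitochondria. In mouse muscle cells, MTOR has been linked to mitochondrial genes through the transcription factor YY1. In human and mouse cell lines, MTOR is known to act on the translation of mitochondrial ribosomal protein messengers, a step that RNA levels do not show.

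The arrays carried the signals of both cell types. None of the 19 measured oocyte markers was below the median gene on every array, and 2 of them were called higher with Torin1 (Figla and Dppa3). At an unadjusted p below 0.05 in limma, 11 were higher and 0 lower. Of their 19 changes 0 were below 0, against 47.2% of all genes, and the median log2 change was 0.22. Summed intensities of these markers were 8701 to 9740 in Torin1 arrays, against 7903 to 8369 in DMSO arrays. Of 14 cumulus and granulosa markers 12 were called lower, with a median of -1.34 and sums of 3517 to 4074 in Torin1 arrays, against 6590 to 7077 in DMSO arrays. The spread within this list was wide: Amhr2, the receptor of anti-Müllerian hormone, averaged 4.04 with Torin1 and 8.03 with DMSO on the log2 scale, and Fshr, the receptor of follicle-stimulating hormone, fell by 2.78, while Inha fell by 0.42, Gja1 fell by 0.38, and Wt1 and Nr5a1 were not called (-0.27 and 0.00). Outside this list, Tnfaip6 rose by 4.71, Ptx3 by 3.86 and Has2 by 3.52, all genes of the cumulus expansion matrix. Over all genes 1138 were called higher and 1540 lower. Fewer cumulus cells, less RNA per cumulus cell and a changed state of these cells cannot be told apart in these bulk samples. The part of each in the members' changes was not tested. Some markers of other cell types moved too, while most of each list were not called. Among 8 stromal and smooth muscle markers Acta2 fell by 2.87 and Pdgfra fell by 0.82, with sums over the list of 192 to 199 in Torin1 arrays, against 456 to 543 in DMSO arrays. Acta2 was the brightest of this list with DMSO (mean 8.43), and the other 6 were not called. Among 5 theca markers Ptch1 fell by 1.53 and Gli1 fell by 1.25 (sums of 129 to 216 with Torin1, against 231 to 310 with DMSO), while Cyp17a1, which defines theca cells, was dim in both groups (2.87 and 2.82). Among 9 endothelial markers Cdh5 rose by 2.33 and Egfl7 fell by 0.40 (sums of 192 to 306 with Torin1, against 151 to 153 with DMSO). Cdh5 averaged 6.43 with Torin1, against 4.10 with DMSO, and the other 7 were not called. Among 10 immune markers Cd68 rose by 0.54 (sums of 110 to 116 with Torin1, against 95.6 to 103 with DMSO). The part of these in the members' changes was not tested. Immune markers were mostly dim, with 9 of 10 below the median gene on every array, as were 5 of 9 endothelial, 4 of 8 stromal and 2 of 5 theca markers. Across all genes, log2 values of Torin1 sample 3 differed from those of Torin1 samples 1 and 2 with an SD of 0.327 and 0.350, against 0.204 between samples 1 and 2.

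The promoter windows of 5 members are shown because these genes span the range of responses described below. Mrpl42 and Mrps15 had the largest falls of the large and the small subunit, Mrps18b was the member called higher, and Mrps18a and Mrps18c are its paralogues. Windows are from RefSeq, build GRCm38.p6, 250 bases before to 50 after the annotated start, read 5′ to 3′ on the gene's strand. Capitals mark matches, on either strand, to 3 motifs of factors known to serve genes of mitochondrial proteins: GCGC, any base and TGCGC for NRF1, CCGGAAG for ETS factors such as GABPA, and AAGATGGC for YY1. The windows are chr10:95501900-95502199 (minus strand), chr4:126046678-126046977 (plus), chr17:46110754-46111053 (plus), chr17:35916391-35916690 (minus) and chr5:100798509-100798808 (plus).
Mrpl42: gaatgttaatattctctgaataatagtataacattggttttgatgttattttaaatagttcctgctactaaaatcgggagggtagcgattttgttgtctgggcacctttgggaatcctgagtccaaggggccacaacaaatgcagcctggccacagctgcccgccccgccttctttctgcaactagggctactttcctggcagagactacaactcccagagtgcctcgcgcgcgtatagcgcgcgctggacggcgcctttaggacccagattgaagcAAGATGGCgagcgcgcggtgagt
Mrps15: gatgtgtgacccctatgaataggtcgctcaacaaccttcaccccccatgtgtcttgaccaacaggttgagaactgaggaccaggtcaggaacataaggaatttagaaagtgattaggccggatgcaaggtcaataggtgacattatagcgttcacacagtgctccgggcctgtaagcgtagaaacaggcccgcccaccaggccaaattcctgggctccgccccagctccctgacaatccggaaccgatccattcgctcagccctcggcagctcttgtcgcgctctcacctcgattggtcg
Mrps18a: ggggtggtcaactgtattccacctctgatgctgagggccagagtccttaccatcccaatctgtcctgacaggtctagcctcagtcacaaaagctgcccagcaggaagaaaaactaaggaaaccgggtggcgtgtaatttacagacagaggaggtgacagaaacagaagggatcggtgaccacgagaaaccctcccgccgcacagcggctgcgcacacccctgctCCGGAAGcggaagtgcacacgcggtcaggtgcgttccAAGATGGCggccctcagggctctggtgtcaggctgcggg
Mrps18b: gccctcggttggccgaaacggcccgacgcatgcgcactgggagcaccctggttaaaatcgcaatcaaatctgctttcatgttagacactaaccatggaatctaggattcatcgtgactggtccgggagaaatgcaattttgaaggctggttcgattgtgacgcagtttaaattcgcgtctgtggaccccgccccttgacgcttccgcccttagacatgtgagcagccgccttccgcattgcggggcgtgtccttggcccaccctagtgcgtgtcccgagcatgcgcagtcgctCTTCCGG
Mrps18c: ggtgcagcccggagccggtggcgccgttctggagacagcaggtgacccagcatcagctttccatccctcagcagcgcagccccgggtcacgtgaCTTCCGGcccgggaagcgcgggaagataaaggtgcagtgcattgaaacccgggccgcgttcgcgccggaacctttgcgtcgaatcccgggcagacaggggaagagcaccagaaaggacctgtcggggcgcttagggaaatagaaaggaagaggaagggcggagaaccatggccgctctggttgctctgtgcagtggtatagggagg
The Mrpl42 window held 1 YY1 match, starting 27 bases after the start, and the Mrps18a window held 1 ETS and 1 YY1 match. The windows of Mrps18b and Mrps18c each held 1 ETS match, and none of the 3 motifs lay in that of Mrps15.

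RefSeq windows were at hand for 62 of the 71 members. The ETS motif was in 37.1% of these members, against 12.9% of all 17492 protein-coding genes with a window, the YY1 motif in 19.4% against 3.57%, and the NRF1 motif in 17.7% against 7.17%. At least 1 of the 3 was present in 38 of the 62 members (61.3%), against 21.0% of protein-coding genes. No window of a member had 2 of the motifs overlapping. The median GC content was 58.5% in member windows, against 52.7% in all windows, and its part in these shares was not tested. Among 8 members called lower that had a window, 6 held at least 1 motif, as did 31 of 53 members that were not called. These matches describe the letters in a window and not the binding of a factor.

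Torin1 arrays gave slightly lower signals for most mitochondrial ribosomal proteins. The log2 change (Torin1 minus DMSO) was below 0 for 55 of 71 members (77.5%), against 47.2% of all genes, and its median was -0.18, against 0.01 over all genes. The quartiles of the 71 changes were -0.31 and -0.02, and the extremes were -0.68 for Mrpl42 and 0.43 for Mrps18b. By limma with Benjamini-Hochberg adjustment over all genes (adjusted p below 0.05), calls were made for 10 lower members and 1 higher member, which left 60 without a call. Of all genes 6.94% were called lower and 5.13% higher. Only 4 members had a mean below that of the median gene, and among the 11090 genes at or above it 12.6% were called lower and 9.46% higher. The members' shares, 14.1% lower and 1.41% higher, are thus near the background for falls and below it for rises. The groups did not overlap in 31 members, with Torin1 lower in 28 and higher in 3. Of all genes 14.3% separated in each direction, and of those at or above the median gene 22.4% separated with Torin1 lower and 22% with Torin1 higher.

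**Figure D1:**
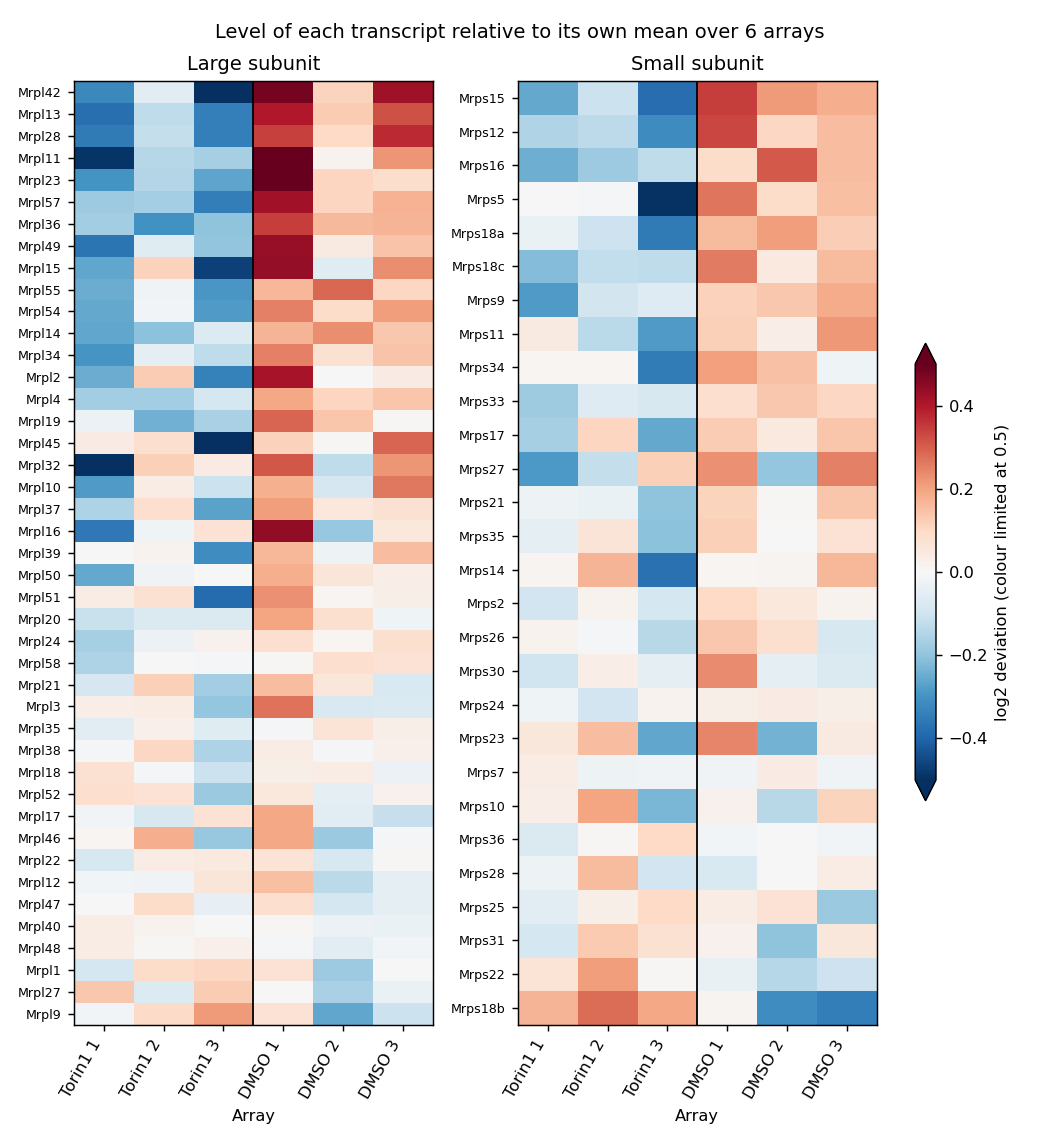
Heat map of the 43 large-subunit and 28 small-subunit members by array, as the log2 deviation from each gene's own mean over 6 arrays (red above, blue below, colour limited at 0.5), with the 3 Torin1 arrays left of the line and the 3 DMSO arrays right of it. Rows run from the lowest to the highest change, and DMSO sample 1 is the highest array in 37 rows while Torin1 sample 3 is the lowest in 31.

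Single arrays carried much of this pattern. DMSO sample 1 was the highest array for 37 of 71 members, and Torin1 samples 3 and 1 were the lowest for 31 and 24. As the median over members of the deviation from each gene's own mean, the Torin1 arrays stood at -0.08, -0.01 and -0.13 and the DMSO arrays at 0.16, 0.03 and 0.07. All 3 Torin1 medians were below all 3 DMSO medians, with Torin1 sample 2 and DMSO sample 2 closest to each other. The median change stayed below 0 in each leave-out, between -0.22 without Torin1 sample 2 and -0.11 without Torin1 sample 3. The number called lower did not hold: it was 0 of 71 without DMSO sample 1 (limma; 20 at an unadjusted p below 0.05), 1 without DMSO sample 3 or Torin1 sample 1, 4 without DMSO sample 2, 6 without Torin1 sample 2 and 7 without Torin1 sample 3. In those fits the share of all genes called lower was 4.6% without DMSO sample 1, 3.81% without DMSO sample 3, 4.6% without Torin1 sample 1, 5% without DMSO sample 2, 5.72% without Torin1 sample 2 and 7.64% without Torin1 sample 3. The single rise was called only without DMSO sample 1, where 3.2% of all genes were called higher; that share was 3.04% without DMSO sample 3, 2.95% without DMSO sample 2, 3.79% without Torin1 sample 1, 3.41% without Torin1 sample 2 and 6.26% without Torin1 sample 3.

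Other settings gave 0 to 14 members called lower, with these shares of all genes beside them. There were 6 with arrays centred on their medians (6.08% of all genes lower, 5.08% higher) and 7 with a trended, robust variance (6.91% and 5%). There were 9 with no offset (6.99% and 5.06%), 9 with the mean of a gene's probe sets (6.95% and 5.12%), 11 with an offset of 16 (6.24% and 4.87%) and 12 with every probe set that names the gene (6.98% and 4.9%). Limiting the fit to genes at or above the median gene gave 12 (14.2% and 10.5%), quantile normalization 14 (7.31% and 5.87%), and Torin1 samples 2 and 3 as 1 sample 11 (7.76% and 5.38%). With the replicate number as a block 0 members were called (limma; 21 lower at an unadjusted p below 0.05), against 4.09% of all genes lower and 2.96% higher.

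**Figure D2:**
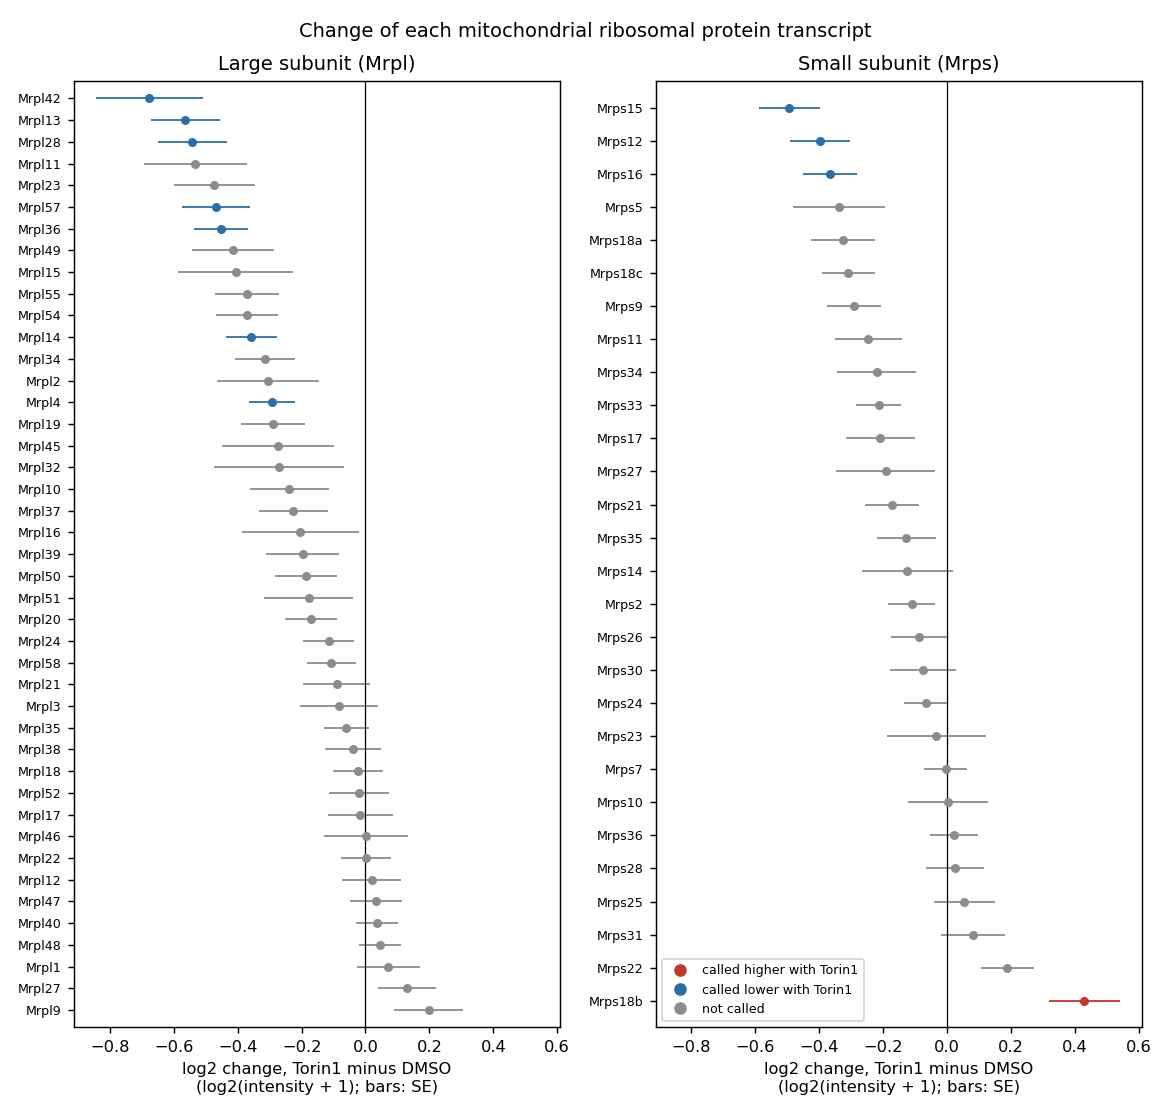
The log2 change (Torin1 minus DMSO) of each member with its standard error, large subunit left and small subunit right. The 10 members called lower lie between -0.68 and -0.29, Mrps18b at 0.43 is the member called higher, and grey points were not called.

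In the large subunit 7 of 43 members were called lower and 0 higher (at an unadjusted p below 0.05 in limma, 14 lower and 0 higher). The median change was -0.20 and 34 members were below 0. Mrpl42, a protein of the mitochondrial large subunit without a bacterial homologue, had 6.68, 6.95 and 6.37 in the Torin1 arrays, against 7.48, 7.12 and 7.43 in the DMSO arrays. Its groups did not overlap, although the spread within each was wide, and it fell by 0.68 ± 0.17 (SE; adjusted p = 0.0424, limma). Mrpl13 had 6.24, 6.49 and 6.27 with Torin1, against 7.01, 6.74 and 6.93 with DMSO. Mrpl28 had 5.61, 5.84 and 5.62 with Torin1, against 6.30, 6.06 and 6.33 with DMSO. Both are homologues of bacterial large-subunit proteins, and in both the highest Torin1 array (sample 2) and the lowest DMSO array (sample 2) lay nearest to each other. Mrpl13 fell by 0.56 ± 0.11 (adjusted p = 0.0161, limma) and Mrpl28 by 0.54 ± 0.11 (adjusted p = 0.0194). They were not called without Torin1 sample 1, DMSO sample 1 or DMSO sample 3 (adjusted p up to 0.0686 and 0.0807).

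The other large-subunit falls were smaller. Mrpl36, whose bacterial homologue is a small protein that joins late in assembly, had 5.95, 5.83 and 5.93 with Torin1, against 6.48, 6.29 and 6.30 with DMSO. It fell by 0.45 ± 0.08 (adjusted p = 0.0152, limma) and was called in 4 of 6 leave-outs (not without Torin1 sample 2 or DMSO sample 1). Its second, dimmer probe set had 3.97, 3.95 and 4.26 with Torin1, against 4.62, 4.21 and 4.24 with DMSO, and these overlapped (-0.30 ± 0.14, adjusted p = 0.273 over named probe sets). With the mean of both probe sets Mrpl36 was not called (adjusted p = 0.0692). Mrpl57, another protein without a bacterial homologue, had 5.17, 5.18 and 5.00 with Torin1, against 5.77, 5.45 and 5.52 with DMSO, and fell by 0.47 ± 0.11 (adjusted p = 0.0314). Mrpl14, which lies at the face towards the small subunit, had 7.07, 7.13 and 7.26 with Torin1, against 7.50, 7.56 and 7.47 with DMSO, and fell by 0.36 ± 0.08 (adjusted p = 0.0307). Mrpl4, which lines part of the exit tunnel, had 6.52, 6.52 and 6.61 with Torin1, against 6.89, 6.80 and 6.83 with DMSO. It fell by 0.29 ± 0.07 (adjusted p = 0.0398), the smallest of the called falls. These 3 kept their call in 1 of 6 leave-outs each (adjusted p up to 0.0831, 0.0991 and 0.135), as did Mrpl42 (up to 0.141).

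Several other large-subunit genes had changes of like size without a call. Mrpl11, at the base of the stalk where translation factors bind, had 4.87, 5.22 and 5.20 with Torin1, against 5.93, 5.38 and 5.59 with DMSO, a change of -0.53 ± 0.16 (adjusted p = 0.0823, limma). DMSO sample 1 was well above the other DMSO arrays. Over all members, 9 with a change below 0 and 0 with a change above it had an adjusted p between 0.05 and 0.1. The same counts over all genes are not given here, so this split has no background beside it. At the other end stood Mrpl12, the stalk protein, which in human cells has also been reported to bind the mitochondrial RNA polymerase. It had 4.89, 4.88 and 4.97 with Torin1, against 5.05, 4.77 and 4.86 with DMSO, and the groups overlapped (0.02 ± 0.09). Mrpl3, a homologue of a bacterial protein near the peptidyl transferase centre, averaged 6.31 ± 0.13 with Torin1 and 6.39 ± 0.20 with DMSO (SD, n = 3 each; adjusted p = 0.802 in limma). The 3 brightest large-subunit probe sets were those of Mrpl24, Mrpl39 and Mrpl2, with changes of -0.12, -0.20 and -0.30, and the 3 dimmest those of Mrpl27, Mrpl48 and Mrpl32, with 0.13, 0.05 and -0.27. None of these 6 was called (adjusted p from 0.321 to 0.787).

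In the small subunit 3 of 28 members were called lower and 1 higher. The median change was -0.13 and 21 members were below 0. Mrps15, a homologue of a bacterial rRNA-binding protein, had 6.43, 6.58 and 6.31 in the Torin1 arrays, against 7.03, 6.90 and 6.87 in the DMSO arrays, and fell by 0.49 ± 0.10 (adjusted p = 0.0172, limma). Mrps12, a protein of the decoding centre, had 5.99, 6.01 and 5.83 with Torin1, against 6.48, 6.25 and 6.30 with DMSO, and fell by 0.40 ± 0.09 (adjusted p = 0.0366). Mrps16, mutated in a human mitochondrial translation disorder, had 8.30, 8.36 and 8.42 with Torin1, against 8.64, 8.85 and 8.70 with DMSO. It was the brightest member and fell by 0.37 ± 0.08 (adjusted p = 0.0327). Its second probe set had the same change, -0.37 ± 0.07, with 6.72, 6.74 and 6.83 in Torin1 arrays, against 7.21, 7.07 and 7.12 in DMSO arrays. In the leave-outs Mrps15 was called in 2, Mrps16 in 1 and Mrps12 in 0 of 6 (adjusted p up to 0.0654, 0.104 and 0.113).

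The Mrps18 paralogues differed in direction. Mrps18b had 7.63, 7.74 and 7.65 in the Torin1 arrays, against 7.47, 7.15 and 7.11 in the DMSO arrays. The groups did not overlap, though DMSO sample 1 lay close to the Torin1 arrays, and the gene rose by 0.43 ± 0.11 (adjusted p = 0.0496, limma). This call was at the threshold and held in 1 of 6 leave-outs, without DMSO sample 1 (adjusted p up to 0.163 in the others). Its second, dimmer probe set changed by 0.44 ± 0.16 with overlapping groups. Adjusted over all named probe sets, neither was called (adjusted p = 0.142 for the second and 0.0528 for the brighter one, limma). The number of the brighter probe set falls among those of members on chromosome 2. That of the dimmer one falls beside those of members on chromosome 17, where the gene lies. Where each probe set aligns was not checked, so the rise may not come from this locus. Mrps18a had 6.05, 5.98 and 5.73 with Torin1, against 6.24, 6.29 and 6.21 with DMSO. Mrps18c had 5.10, 5.19 and 5.19 with Torin1, against 5.57, 5.36 and 5.47 with DMSO. Both were lower in all Torin1 arrays than in any DMSO array, with changes of -0.33 ± 0.10 (adjusted p = 0.0845) and -0.31 ± 0.08 (adjusted p = 0.0563) that were not called. A second, dimmer probe set of Mrps18c had overlapping groups (-0.15 ± 0.11, adjusted p = 0.527 over named probe sets, limma). With the mean of both probe sets Mrps18c changed by -0.23 (adjusted p = 0.11). The difference between paralogues was not tested. In structures of mammalian mitochondrial ribosomes the Mrps18c and Mrps18b proteins sit in the small subunit, while that of Mrps18a sits in the large one.

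**Figure D3:**
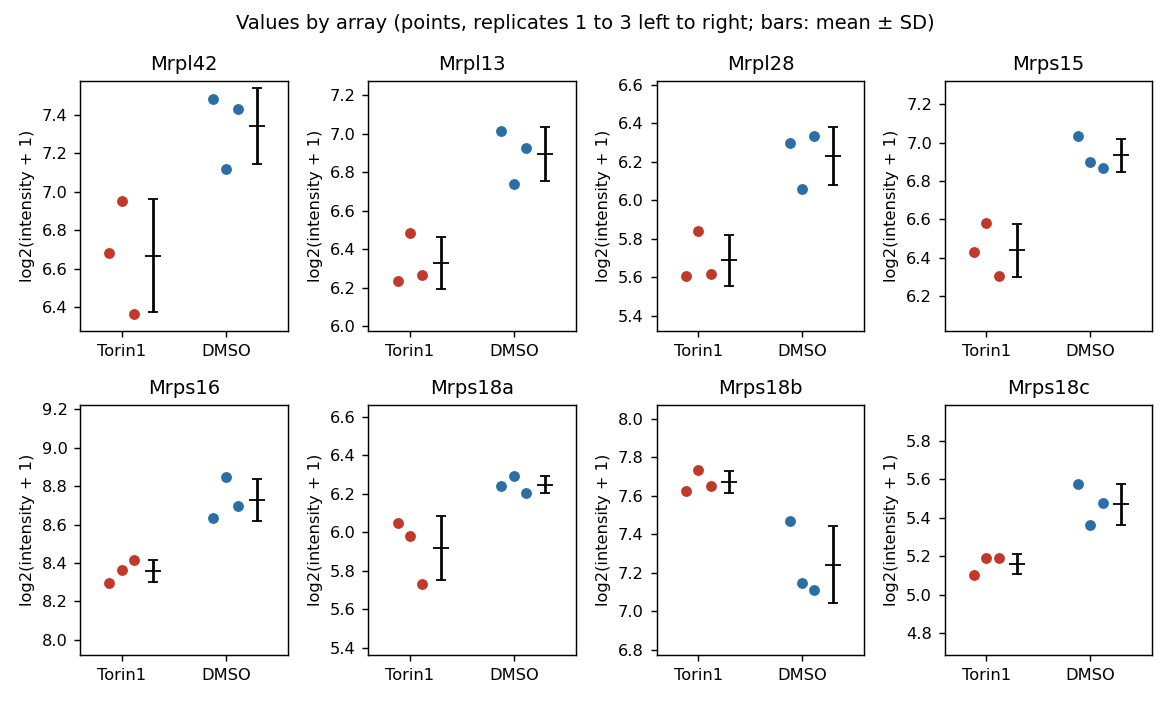
Values of 8 members by array on the log2(intensity + 1) scale, Torin1 left of DMSO in each panel, with replicates 1 to 3 from left to right and black bars for the mean ± SD (n = 3 each). Axes cover the same range of log2 units in each panel but start at different levels; the Torin1 points lie below the DMSO points in 7 panels and above them for Mrps18b.

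Other small-subunit genes were not called. Mrps22, a mitochondrion-specific protein and like Mrps16 a human disease gene, had 7.54, 7.69 and 7.48 with Torin1, against 7.44, 7.33 and 7.37 with DMSO, which is 0.19 ± 0.08 without a call (adjusted p = 0.224, limma). Mrps7, which binds the head of the small subunit's rRNA, averaged 6.25 ± 0.04 with Torin1 and 6.25 ± 0.03 with DMSO (SD, n = 3 each). Mrps2 and Mrps5, both with bacterial homologues, changed by -0.11 ± 0.07 and -0.34 ± 0.14 (adjusted p = 0.448 and 0.211 in limma). In Mrps5 Torin1 sample 3 was lowest, at 5.08, with 5.58 and 5.57 in the other Torin1 arrays. The dimmest members were Mrps36, Mrps14 and Mrps21, with means of 2.77, 3.04 and 4.38 with Torin1 and 2.75, 3.16 and 4.55 with DMSO. The changes of these 3 were 0.02, -0.12 and -0.17, and none was called. Mrps36 is now known as a subunit of the alpha-ketoglutarate dehydrogenase complex.

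The large and the small subunit were then set side by side. In the large subunit 16.3% of members were called lower, against 10.7% in the small subunit, and the median changes were -0.20 and -0.13. Of genes at or above the median gene 12.6% were called lower, and of all genes 6.94%. Array by array, the large-subunit median deviation was -0.15, -0.01 and -0.16 with Torin1, against 0.19, 0.01 and 0.05 with DMSO. The small-subunit median was -0.04, 0.00 and -0.13 with Torin1, against 0.11, 0.04 and 0.09 with DMSO. Large minus small was -0.11, 0.00 and -0.03 in the Torin1 arrays, against 0.08, -0.03 and -0.04 in the DMSO arrays. These values overlapped between the groups, so no difference between the subunits was seen beyond the spread between arrays. Moving Mrps18a and Mrps30 to the large subunit and leaving out Mrps36, as structures of the mammalian ribosome have it, gave medians of -0.20 over 45 and -0.13 over 25 members.

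**Figure D4:**
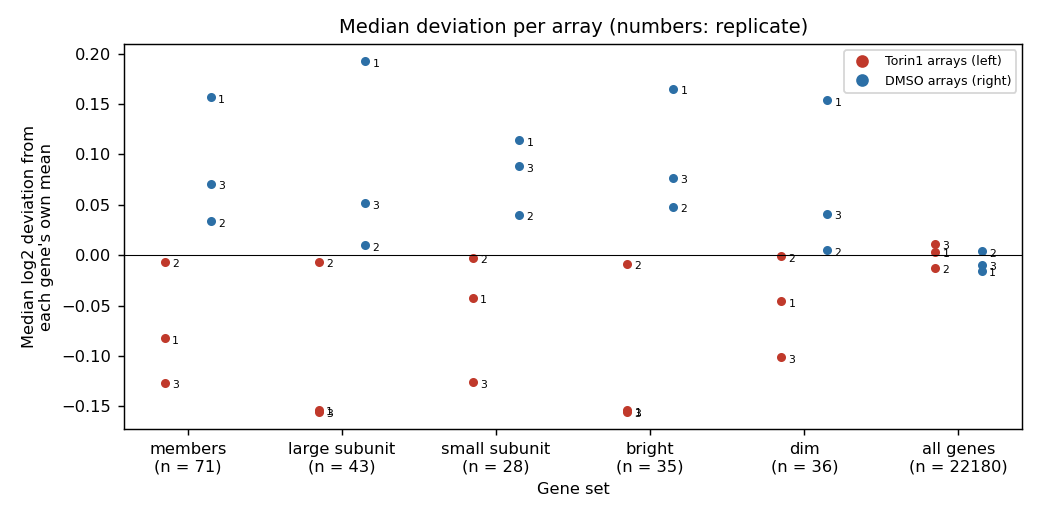
Median over each gene set of the log2 deviation from each gene's own mean over 6 arrays, 1 point an array, Torin1 left and DMSO right, with the replicate number beside it. The Torin1 arrays lie below the DMSO arrays in the 5 sets of mitochondrial ribosomal proteins, with a narrow gap between the arrays numbered 2, and all genes lie within 0.02 of 0.

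Bright and dim members were separated at the median member's mean signal of 6.14. Signal on an array depends on the probes as well as on the amount of RNA, so this is a split by signal and not by abundance. Among 35 bright members 6 were called lower and 1 higher, and 30 changes (85.7%) were below 0. Among 36 dim members 4 were called lower and 0 higher (limma; at an unadjusted p below 0.05, 9 and 0), and 25 changes (69.4%) were below 0. The shares called lower, 17.1% of bright and 11.1% of dim members, stand beside 12.6% of genes at or above the median gene and 6.94% of all genes. The median changes were -0.20 and -0.15, with median standard errors of 0.10 in both. Bright minus dim, as a median deviation, was -0.11, -0.01 and -0.05 in Torin1 arrays, against 0.01, 0.04 and 0.04 in DMSO arrays. The 3 Torin1 values lay below the 3 DMSO values, with a narrow gap between Torin1 sample 2 (-0.01) and DMSO sample 1 (0.01). The SD of the Torin1 values was 0.05, and the difference between groups was not tested. The offset of 1 shrinks the changes of dim probe sets; with an offset of 16 the medians were -0.18 for bright and -0.09 for dim members, and with none they were -0.20 and -0.16. Of the 23 bright large-subunit members 22 were below 0, with Mrpl9 as the exception (0.20 ± 0.11, not called), while among the 20 dim ones 12 were. The small subunit did not follow this order, with 8 of 12 bright and 13 of 16 dim members below 0.

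**Figure D5:**
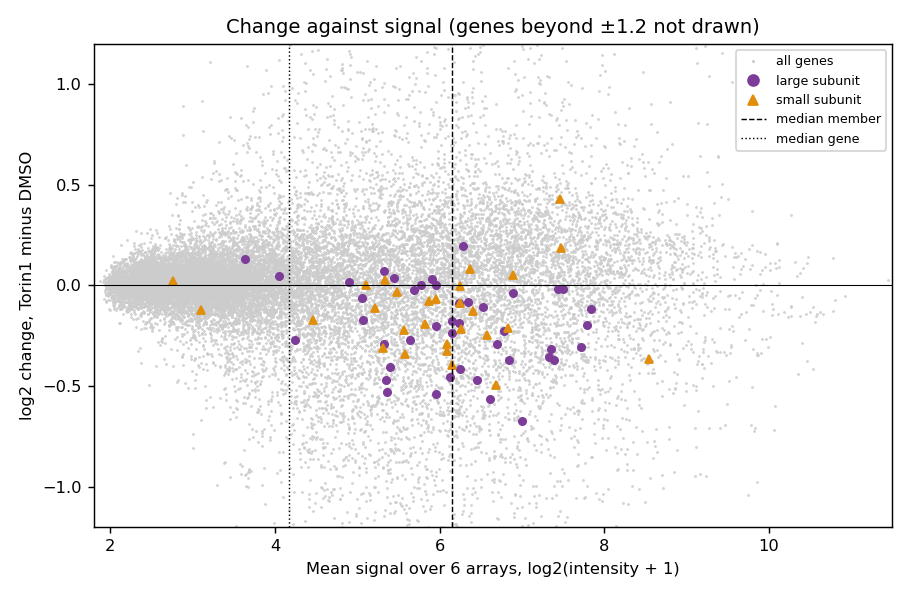
The log2 change (Torin1 minus DMSO) of each gene against its mean signal over 6 arrays, with the large subunit as purple circles, the small subunit as orange triangles and all genes in grey. Most members lie right of the median gene (dotted, 4.17) and below 0, on both sides of the median member (dashed, 6.14).

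Members assigned a bacterial homologue and members without one were also compared, leaving out Mrps36. Mrpl47, of the L29 family found in bacteria, was counted among those without one, and so was Mrps28, named as of the S1 family. The counts and medians below are off by at least these genes, which changed by 0.03 ± 0.08 (Mrpl47) and 0.02 ± 0.09 (Mrps28), neither called. Of 42 with a homologue 8 were called lower (Mrpl4, Mrpl13, Mrpl14, Mrpl28, Mrpl36, Mrps12, Mrps15 and Mrps16) and 1 higher (Mrps18b), and the median change was -0.22. Of 28 without one 2 were called lower (Mrpl42 and Mrpl57) and 0 higher (6 and 0 at an unadjusted p below 0.05 in limma), and the median was -0.12. The shares called lower, 19% and 7.14%, stand beside 6.94% of all genes and 12.6% of genes at or above the median gene. This grouping was chosen after values were seen and was not tested.

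Many members share a promoter region with a gene that runs the other way. Of the 62 members with a RefSeq window 23 (37.1%) had a start on the opposite strand within 1000 bases upstream, against 13.1% of protein-coding genes. Mrps11 and Mrpl46 face each other with 42 bases between their starts, and changed by -0.25 ± 0.10 and 0.00 ± 0.13, neither called. Mrps12 lies 147 bases from Sars2, the mitochondrial seryl-tRNA synthetase, which did not follow its fall (0.04 ± 0.12, adjusted p = 0.906 in limma). Likewise Ska3, 76 bases from Mrpl57, and Tmem63b, 131 bases from Mrpl14, changed by 0.00 ± 0.19 and 0.09 ± 0.12. Opposite Mrps18b, at 756 bases, Ppp1r10 changed by 0.36 ± 0.12 in the same direction without a call (adjusted p = 0.102). Of the 23 measured neighbours 2 were called, both lower: Psma2, a proteasome subunit beside Mrpl32 (-0.44 ± 0.07), and Ndufb5, a complex I subunit beside Mrpl47 (-0.43 ± 0.10). Neither Mrpl32 nor Mrpl47 was called. Of all genes 6.94% were called lower, and of those at or above the median gene 12.6%, so 2 of 23 neighbours is near the background.

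Other genes of mitochondrial translation are given beside the shares called over all genes, 6.94% lower and 5.13% higher. Among ribosomal proteins under other symbols, Dap3, Ptcd3 and Gadd45gip1 were measured and changed by -0.15 ± 0.08, 0.10 ± 0.09 and 0.15 ± 0.13, with 0 calls (limma; 0 also at an unadjusted p below 0.05). Of 26 genes of ribosome assembly and rRNA modification the fit called 1 lower and 0 higher, with a median of -0.05 (4 lower and 3 higher at an unadjusted p below 0.05). That gene was Rbfa, which matures the small subunit's rRNA, with 6.20, 6.29 and 5.97 in Torin1 arrays, against 7.55, 7.35 and 7.24 in DMSO arrays. It fell by 1.23 ± 0.12 (adjusted p = 0.00111, limma), further than any of the 71 members. Of 15 translation factors the fit called 1 lower and 0 higher, with a median of -0.06 (5 lower and 1 higher unadjusted). It was Guf1, a GTPase of mitochondrial elongation, with 4.16, 4.56 and 4.28 in Torin1 arrays, against 5.61, 4.97 and 5.29 in DMSO arrays (-0.95 ± 0.18, adjusted p = 0.0153).

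For genes that act further upstream the same shares of all genes apply. Of 11 genes of mitochondrial DNA transcription and maintenance 0 were called (limma; 2 lower and 2 higher at an unadjusted p below 0.05), and the median was 0.03. Tefm, a transcription elongation factor, and Elac2, a tRNA-processing nuclease, had the smallest p, with changes of -0.40 ± 0.12 and 0.37 ± 0.14 (adjusted p = 0.0752 and 0.157). Of 9 nuclear regulators of mitochondrial genes the fit called 1 higher and 0 lower, with a median of 0.19 (4 higher and 0 lower unadjusted). Pprc1, a coactivator related to PGC proteins, had 6.70, 6.57 and 6.66 with Torin1, against 6.35, 5.76 and 5.79 with DMSO, and rose by 0.67 ± 0.16 (adjusted p = 0.0380). The factors whose motifs were searched changed by 0.31 ± 0.11 (Yy1), 0.19 ± 0.10 (Nrf1) and 0.27 ± 0.10 (Gabpa), none called (adjusted p = 0.124, 0.308 and 0.129).

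Complex I genes and genes with Rpl or Rps symbols give a scale for these values on the same arrays. Of all genes 6.94% were called lower and 5.13% higher, and of those at or above the median gene 12.6% and 9.46%. Of 33 complex I subunits (Nduf symbols) 19 were called lower and 0 higher, with a median of -0.45 and 32 changes below 0 (limma; 26 lower and 0 higher unadjusted). Of 86 genes whose symbols begin with Rpl or Rps and a digit, 0 were called lower and 3 higher (9 and 7 unadjusted). Their median was -0.13, with 63 changes below 0. Most such symbols are of cytosolic ribosomal proteins, but the rule also takes in other genes, such as ribosomal S6 kinases (Rps6k symbols). These were not separated, so the values are not those of ribosomal proteins alone. The mitochondrial ribosomal proteins, with a median of -0.18 and 55 of 71 below 0, lay between these 2 groups; differences between groups of genes were not tested.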

How the data were processed

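Expression was measured in 3 Torin1 and 3 DMSO samples, grouped by their titles, on an Affymetrix platform with 41345 probe sets. The deposited values are intensities, 1 per probe set and array, and the submitters' processing notes name GCOS, RMA and Affymetrix Expression Console 1.1 as the tools the authors used, without their settings. Levels are relative and not absolute amounts of RNA. Intensities ran from 2.25 to 3268 on a linear scale with array medians of 11.1 to 12.0. The number of arrays limits the precision.

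The values were used as log2(intensity + 1), a scale on which changes of dim genes are understated. Of the probe sets 23521 named 1 gene, 1814 named several and 16010 were unnamed here; 23328 matched RefSeq (GRCm38.p6) by Entrez identifier, including the 80 of the members. The brightest probe set per gene gave 22180 genes. The 2 groups were compared without covariate or filter by a two-sided moderated test (limma 3.58.1 under R 4.3.3), and a call needs a Benjamini-Hochberg adjusted p below 0.05, taken over the 22180 genes. Exact permutation of 3 against 3 cannot go below 0.1 and was not used. On simulated data for this comparison with 22180 genes, 0% of 50 genes changed by an absolute log2 value of 0.25 were recovered, 32% at 0.5, 96% at 1 and 100% at 2, with 7 false calls. The simulation changed 50 genes at each size, far fewer than the 1540 lower and 1138 higher genes called in the data. Its adjusted threshold was therefore stricter, and these rates may understate recovery here.

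The members and gene lists were chosen with earlier results of these data known. Named members are the called ones, the 4 largest changes per subunit, the 3 brightest and 3 dimmest per subunit, the Mrps18 paralogues and a fixed set (of which Mrpl44 was not measured alone); of other lists, up to 4 called genes or else the 2 with the smallest p. Named outside this rule after values were seen are Mrpl9, Mrpl46, Mrps11, Mrpl47, Mrps28, the promoter neighbours, Ptcd3, Yy1, Nrf1, Gabpa and the genes of shared probe sets. So are Mrps17, Mrps30, Mrps34, the markers Inha, Gja1, Wt1, Nr5a1 and Cyp17a1, and Tnfaip6, Ptx3 and Has2. Erythroid markers and mitochondrially encoded mRNAs are not analysed here, since no probe set names them alone. Alternatives tried were the offset, a filter on dim genes, array scaling, the choice of probe set, the variance model, the replicate number as a block, Torin1 samples 2 and 3 (whose descriptions share a short name) as 1 sample, and leaving out each array. The labels do not say whether the shared replicate numbers pair the samples, so they were not used as pairs in the main fit.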

Additional observations from a re-analysis of the deposited data

How the results depend on the processing

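The median changes of all members, both subunits, and bright and dim members kept their direction under each alternative, with 1 exception: when members were split at the median gene, the 4 dim ones had a median of 0.0339. The count of members called lower, 10, was 6 with arrays centred on their medians, 0 with the replicate number as a block (limma; 21 at an unadjusted p below 0.05), 7 to 14 in the other planned settings, and 0 to 7 when 1 array was left out. The single rise was lost, giving 0, with an offset of 16 or 0, centred arrays, the mean of probe sets, every probe set naming the gene, the replicate block, and Torin1 samples 2 and 3 as 1; leaving out 1 array gave 0 to 1. Deviations of same-numbered samples correlated at -0.207, -0.299 and -0.148. These give no sign of pairing, but 3 arrays a group cannot exclude it. Changes near 0 reversed in sign: Mrpl12 was -0.0815 with the mean of probe sets and -0.0425 to 0.0997 over the leave-outs, and Mrps7 was 0.0181 with centred arrays, 0.0159 after quantile normalization, 0.00535 with Torin1 samples 2 and 3 as 1, and -0.0251 to 0.0145 over the leave-outs. Over the leave-outs Mrpl3 ran from -0.141 to 0.0329, Mrps14 from -0.241 to 0.0297 and Mrps36 from -0.0231 to 0.0624. Scaling moved the median of all genes to at most 0.03. Most changes seen here were small: on simulated data 0% of changes of 0.25 and 32% of those of 0.5 were called. Far fewer genes were changed in that simulation than were called in the data, so its rates may understate recovery. In the data the smallest called fall was 0.29 (Mrpl4). The subunit assignment by structure and the setting without Mrps36 were chosen after seeing the data and gave medians of -0.197 and -0.128 for the subunits and -0.182 for all members.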

Other observations

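Probe sets that name a mitochondrial ribosomal protein together with another gene were outside the comparison, and their signal cannot be assigned to either gene. The probe set of Babam2 and Mrpl33 had 5.61, 5.64 and 5.46 in Torin1 arrays, against 6.44, 6.32 and 6.35 in DMSO arrays, a change of -0.80 ± 0.08 (adjusted p = 0.00159 over all named probe sets, limma). A second one, of Mrpl33 and Gm38424, had 3.62, 3.59 and 3.48 in Torin1 arrays, against 3.95, 3.99 and 3.96 in DMSO arrays, and changed by -0.40 ± 0.07 (adjusted p = 0.0146). The probe set of Nme3 and Mrps34 had 5.85, 5.89 and 5.57 in Torin1 arrays, against 6.44, 6.43 and 6.46 in DMSO arrays (-0.68 ± 0.10, adjusted p = 0.00668), while the one that names Mrps34 alone changed by -0.22 ± 0.12. The probe set of Mrpl43 and Twnk was higher in all Torin1 arrays without a call (0.24 ± 0.09, adjusted p = 0.171).

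Of the 9 members with several probe sets of their own, 6 had changes of 1 sign in all of them. In Mrps17 the brighter probe set had overlapping groups (-0.21 ± 0.11), and the dimmer one had 4.46, 4.50 and 4.86 in Torin1 arrays, against 5.54, 4.91 and 5.03 in DMSO arrays (-0.55 ± 0.19, adjusted p = 0.125 over all named probe sets, limma).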
